A study of Mus musculus with 8 samples.

Results

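Cct2, Cct3 and Cct4 encode subunits of the cytosolic chaperonin, and their messenger RNA was followed in the tibialis anterior of mice, a shin muscle made mostly of fast fibres, after loss of its nerve. The members are the probe sets annotated with one of these gene symbols alone, with the brightest probe set taken for each gene. Each of the 3 genes had 1 such probe set, so they are 3 of 14860 genes measured. They were chosen by the denervated against innervated difference in log2 intensity on these same arrays, which earlier results had shown to be above 0, so that difference is described here without a test and supports nothing by itself.

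In every animal, a male C57BL/6 mouse aged 8 weeks, the left sciatic nerve had been cut, and both tibialis anterior muscles were taken 7 days later. The denervated group is the muscle of the cut side (4 arrays). The innervated group is the muscle of the other leg of operated animals (4 arrays), so the control also comes from a mouse with an injured nerve, and no sham-operated group is part of the comparison. Amplified RNA from whole muscle was hybridised to oligonucleotide arrays, and values are log2 intensities, on which a difference of 1 is a doubling of intensity.

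The cytosolic chaperonin, called CCT or TRiC, is a barrel of stacked rings built from related subunits, each made from its own gene. With energy from ATP it folds newly made proteins inside its chamber, above all actin and tubulin, the building blocks of thin filaments and microtubules. In zebrafish, loss of chaperonin subunits disturbs the assembly of muscle sarcomeres. Prefoldin hands unfolded clients to the chaperonin, phosducin-like proteins modulate its cycle, and tubulin-folding cofactors take over the tubulins it releases.

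Array medians ran from 5.84 to 6.00. The arrays of replicate 3 stood apart: their values span a narrower range, with an SD over all probe sets of 1.25 for denervated and 1.36 for innervated replicate 3, whereas the remaining 6 had SDs from 1.45 to 1.56. The correlation of denervated replicate 3 with the rest of its group was between 0.927 and 0.930, and values without replicate 3 are therefore given beside the main ones. The label of the tissue was borne out by its markers, since the 9 measured muscle fibre genes had innervated means from 9.82 for Mb, the gene of myoglobin, to 12.77 for Tnnt3, fast troponin T. In whole muscle, a change in the number of cells of a type and a change in RNA per cell cannot be told apart.

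Cct2 encodes the beta subunit. Its log2 intensity was 8.66, 8.67, 8.39 and 8.57 in innervated replicates 1 to 4 and 9.29, 9.38, 8.58 and 9.41 in the denervated ones. Denervated replicates 1, 2 and 4 lay above every innervated array, but denervated replicate 3 lay below innervated replicates 1 and 2, so the groups overlap. The mean went from 8.57 ± 0.13 to 9.16 ± 0.40 (SD, n = 4), a difference of 0.60 (SE 0.13), or 1.51-fold. Without replicate 3 the difference was 0.73, or 1.66-fold.

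Cct3 encodes the gamma subunit. It stood at 7.37, 7.24, 7.49 and 7.20 in innervated replicates 1 to 4 and at 8.03, 8.17, 7.63 and 8.03 in the denervated ones. Every denervated array was above every innervated array, and replicate 3 held both the highest innervated and the lowest denervated value. The difference was 0.64 (SE 0.15), or 1.56-fold, from 7.33 ± 0.13 to 7.97 ± 0.23, and it was 0.81 without replicate 3.

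Cct4, the gene of the delta subunit, varied least of the members among the innervated arrays, with values of 7.99, 8.05, 8.00 and 8.04. In denervated replicates 1 to 4 it was at 8.58, 8.62, 8.34 and 8.62. The groups do not overlap, with replicate 3 again lowest on the denervated side. The difference was 0.52 (SE 0.10), or 1.43-fold, from 8.02 ± 0.028 to 8.54 ± 0.14, and it was 0.58 without replicate 3.

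**Figure D1:**
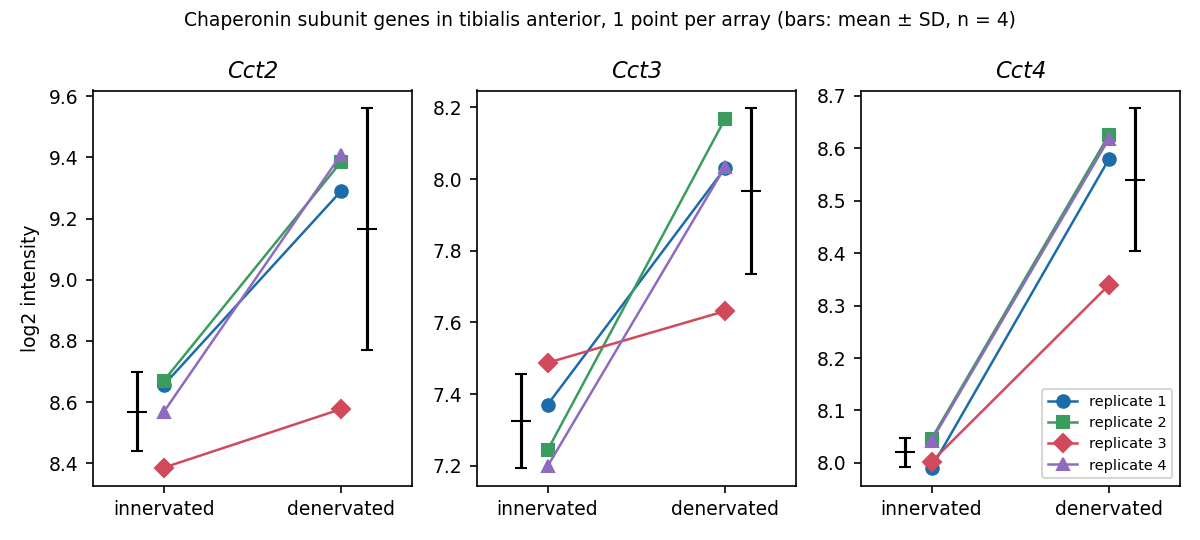
Log2 intensity of Cct2, Cct3 and Cct4 (vertical axes, a scale of its own per gene) in the innervated and denervated arrays, with a line joining arrays of the same replicate number and bars for mean ± SD (n = 4). All lines go up, and the lines of replicate 3 go up least, by 0.19 for Cct2, 0.14 for Cct3 and 0.34 for Cct4.

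All 12 same-numbered differences of the members, denervated minus innervated, were above 0. In replicates 1, 2 and 4 they were 0.63, 0.72 and 0.84 for Cct2 and 0.66, 0.92 and 0.83 for Cct3. Those of Cct4 were 0.59, 0.58 and 0.58, the narrowest spread of the members. A difference above 0 in all 4 replicates was found for 13.1% of all genes, and 5.32% had every denervated array above every innervated array. Without replicate 3 the groups of all 3 members were apart in this way, as were those of 13.6% of all genes. Cct3 had 425 genes with a larger upward difference, or 2.86% of all genes, Cct2 had 499 and Cct4 had 642. The 3 members are among the 529 genes, 3.56% of 14860, that were higher at a limma adjusted p under 0.05, which is part of how they were chosen. With replicate 3 left out all 3 stayed there, where 5.80% of genes did. None of the members did with replicate 1, 2 or 4 left out, where only 137, 225 and 176 of all genes were higher at that threshold. Without the replicate number in the model, where 326 genes were higher at that threshold, Cct2 was not among them. After median centring, where 444 genes were, neither Cct2 nor Cct3 was among them.

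Equalising the arrays moved replicate 3 towards the others. After quantile normalization, which gives every array the same distribution, the difference of Cct4 in replicate 3 was 0.61, inside the 0.49 to 0.63 of the other replicates. That of Cct2 was 0.48 against 0.65 to 0.81, and that of Cct3 was 0.33 against 0.69 to 0.80. On this scale the groups of Cct2 no longer overlapped, with a highest innervated value of 8.65 and a lowest denervated value of 8.95. The mean differences were then 0.66 for Cct2, 0.65 for Cct3 and 0.56 for Cct4.

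**Figure D2:**
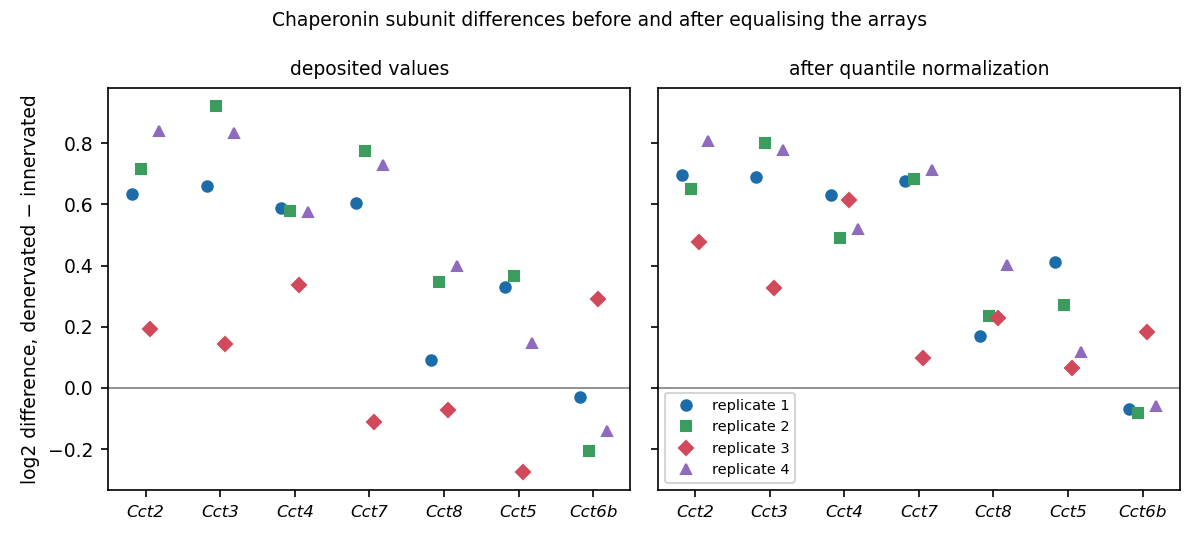
Log2 difference, denervated minus innervated, for each replicate number of the 7 measured chaperonin subunit genes, from the deposited values (left) and after quantile normalization (right). For replicate 3 the difference of Cct4 goes from 0.34 to 0.61 and that of Cct7 from -0.11 to 0.10, while for Cct3 it stays the lowest of the 4 at 0.33.

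The promoters of 2 of the 3 members are in RefSeq's promoter windows of build GRCm38.p6, which run from 250 bases before to 50 bases after a start. They are shown because the members were higher together, and capitals mark matches on either strand to the letters of the motifs searched. The motifs were GAANNTTC and TTCNNGAA, the core pairs of the heat shock element bound by heat shock factors, CCAAT, the GC box GGGCGG, the E-box CACGTG and the ETS site CCGGAAG. No matches overlapped each other in these windows. Cct2 has 2 annotated starts, and the window of the upstream start lies on the minus strand at chr10:117063803-117064102.
Cct2 upstream start: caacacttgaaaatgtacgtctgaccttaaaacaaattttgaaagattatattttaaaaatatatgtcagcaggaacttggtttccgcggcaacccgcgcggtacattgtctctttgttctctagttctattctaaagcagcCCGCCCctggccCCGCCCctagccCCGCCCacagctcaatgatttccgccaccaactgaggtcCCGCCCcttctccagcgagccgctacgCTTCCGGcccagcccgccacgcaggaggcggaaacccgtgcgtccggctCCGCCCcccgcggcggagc
The window of the downstream start lies at chr10:117063326-117063625, also on the minus strand.
Cct2 downstream start: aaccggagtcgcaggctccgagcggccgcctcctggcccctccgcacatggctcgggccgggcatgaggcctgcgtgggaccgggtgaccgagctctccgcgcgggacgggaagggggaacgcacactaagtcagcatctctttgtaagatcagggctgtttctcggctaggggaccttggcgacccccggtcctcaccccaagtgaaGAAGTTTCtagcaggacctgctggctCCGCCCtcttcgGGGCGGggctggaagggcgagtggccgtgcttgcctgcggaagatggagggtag
Cct3 has 1 window, on the plus strand at chr3:88296885-88297184.
Cct3: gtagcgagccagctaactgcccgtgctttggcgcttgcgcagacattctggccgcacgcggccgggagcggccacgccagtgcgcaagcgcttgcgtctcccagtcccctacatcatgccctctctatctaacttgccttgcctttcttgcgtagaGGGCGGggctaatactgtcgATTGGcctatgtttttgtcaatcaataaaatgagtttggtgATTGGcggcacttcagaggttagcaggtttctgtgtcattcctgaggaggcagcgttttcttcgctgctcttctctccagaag

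All 3 windows, from 2 genes, hold the GC box, which 35.7% of all 32851 windows hold. Their GC content was 57.3% and 67% for the upstream and downstream Cct2 windows and 55.3% for Cct3. The median over all windows was 52.7%. The box is not particular to the members, since it is also in the windows of Cct7 and Cct8 and in 1 of 2 Cct5 windows. The upstream Cct2 window has 5 GC boxes and 1 ETS site, found in 8.86% of windows. The downstream Cct2 window has 2 GC boxes and 1 match to GAANNTTC, which 7.86% of windows hold. The Cct3 window has 1 GC box and 2 CCAAT boxes, present in 37.4% of windows, and neither of the 2 heat shock element letters. No window of the members matched TTCNNGAA or the E-box, which are in 8.52% and 7.15% of windows. These matches describe the letters and are not evidence of binding.

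The other subunits of the chaperonin were not all higher to the same extent. Of the 6 listed, 4 were measured, namely Cct5, Cct6b, Cct7 and Cct8. None passed limma's test over all genes (adjusted p under 0.05, which 8.45% of genes passed in either direction), and 1 had an unadjusted p under 0.05. For unadjusted p-values no share over all genes was taken, in this list or the others, so such counts show no excess. Their median difference was 0.17, beside -0.01 over all genes. Without replicate 3, 1 of them rose, and the median was 0.28, beside -0.03 over all genes.

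Cct7, the eta subunit, came closest to the members. It was at 8.25, 8.11, 7.76 and 8.06 in innervated replicates 1 to 4 and at 8.86, 8.88, 7.65 and 8.79 in the denervated ones. Denervated replicate 3 was the lowest of all 8 arrays, whereas the other denervated arrays lay above every innervated one. Its difference of 0.50 (SE 0.16) did not pass (limma adjusted p = 0.116). Without replicate 3 it rose by 0.70 (adjusted p = 0.00718), it also passed after cyclic loess normalization and with array weights, and over all alternatives but the one without replicate 3 the adjusted p was between 0.00841 and 0.391.

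Cct8, the theta subunit, was at 9.44, 9.32, 9.36 and 9.20 in innervated and 9.53, 9.67, 9.29 and 9.59 in denervated replicates 1 to 4. The groups overlap through denervated replicate 3, and the difference was 0.19 (SE 0.12, limma adjusted p = 0.438). Cct5, the epsilon subunit, was at 9.10, 9.15, 9.11 and 9.23 in innervated and 9.43, 9.51, 8.83 and 9.38 in denervated replicates 1 to 4. Denervated replicate 3 was again the lowest of the 8 arrays, and the difference was 0.14 (SE 0.13, adjusted p = 0.643). Without replicate 3 the differences of Cct8 and Cct5 were both 0.28, with adjusted p-values of 0.180 and 0.157.

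Cct6b encodes a zeta subunit that is known mainly from testis. It was dim, at 4.34 ± 0.19 in innervated and 4.32 ± 0.38 in denervated muscle, under the lower quartiles of the arrays (4.98 to 5.36). Its highest value was 4.89 in denervated replicate 3, the array in which Cct2, Cct3, Cct4, Cct5, Cct7 and Cct8 had their lowest denervated values. The difference was -0.02 (SE 0.12, limma adjusted p = 0.953). Tcp1 and Cct6a, the genes of the alpha and the widely used zeta subunit, are not analysed here.

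**Figure D3:**
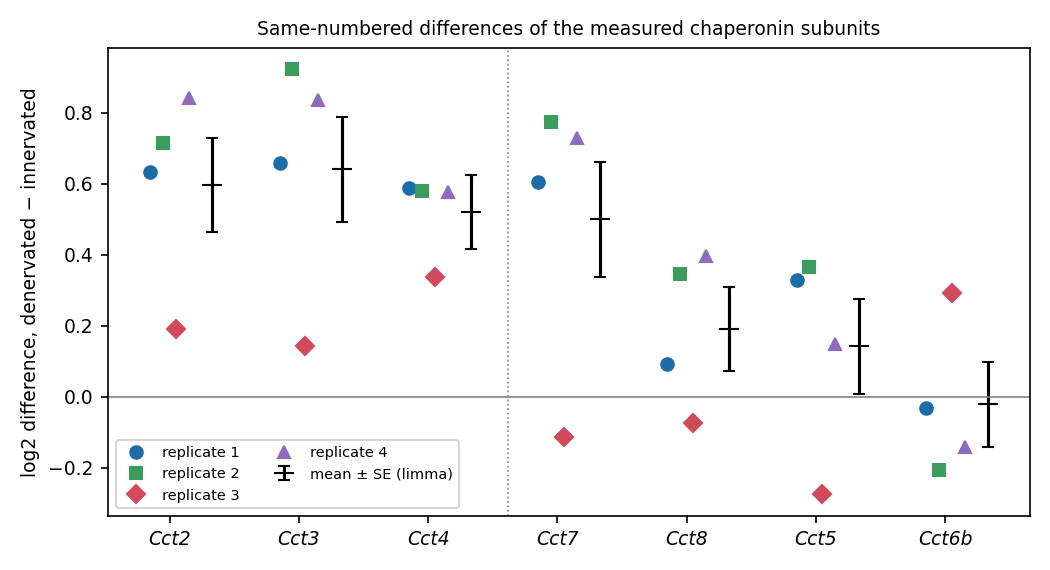
Log2 difference, denervated minus innervated, of the 7 measured chaperonin subunit genes, 1 point per replicate number, with the mean ± SE from limma in black and the members left of the dotted line. Replicate 3 is lowest for Cct2, Cct3, Cct4, Cct5, Cct7 and Cct8 and highest for Cct6b, at 0.29.

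Across the 8 arrays, the genes with a profile most like the mean of the z-scored profiles of the members were Psmd14, Eda2r, Gnl3, Txnl1 and Napb, with Pearson correlations of 0.994, 0.992, 0.991, 0.991 and 0.989. Psmd14 encodes the deubiquitinating subunit of the proteasome lid, Eda2r a receptor for ectodysplasin, Gnl3 the nucleolar protein nucleostemin, Txnl1 a thioredoxin-like protein and Napb a soluble NSF attachment protein. Without replicate 3 the correlations over 6 arrays lay between 0.990 and 0.997. These values are a description, since the 8 arrays share the split into groups and the narrow range of replicate 3. Psmd14 was close to the members in size too, with a difference of 0.58 (SE 0.14) from 9.31 ± 0.053 to 9.89 ± 0.25, whereas Eda2r differed by 3.03 (SE 0.28), Gnl3 by 0.82, Txnl1 by 0.64 and Napb by 1.08. Among the other subunits Cct8, Cct7 and Cct5 correlated with the members' profile at 0.87, 0.84 and 0.71, and Cct6b at -0.44.

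With the group means removed, the highest correlations were those of Kpna3, Tsn, Cul1, Smim7 and Heatr3, from 0.984 to 0.993. Denervated replicate 3 was the lowest denervated array for each of them, as for the members. Their differences between the groups lay between -0.05 and 0.22, and without replicate 3 they were 0.53 for Kpna3, 0.42 for Smim7, 0.33 for Cul1, 0.19 for Tsn and 0.16 for Heatr3. Over those 6 arrays, group means kept, Kpna3, Cul1 and Smim7 correlated with the members at 0.98, whereas Heatr3 reached 0.92 and Tsn 0.80. On the same measure Cct7 reached 0.99, Cct5 0.93 and Cct8 0.90, and Cct6b stood at -0.73. Over all 8 arrays with the group means removed, Cct5 reached 0.95, Cct7 0.94 and Cct8 0.87, and Cct6b stood at -0.88.

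Among the cofactors that work with the chaperonin, 1 of 14 measured genes rose and none fell. This count is near the 3.56% and 4.89% of all genes that did so. An unadjusted limma p under 0.05, in either direction, was found for 6 of the 14, a count for which no share over all genes was taken. The median was 0.14, or 0.16 without replicate 3. Tbcb, a cofactor that binds alpha-tubulin, rose by 0.61 (SE 0.14) from 8.13 ± 0.26 to 8.74 ± 0.57 (limma adjusted p = 0.0379). It was higher in all 4 replicates, by 0.81, 0.62, 0.16 and 0.84. Without replicate 3 it rose by 0.75 (adjusted p = 0.00626), but it missed the threshold without the replicate number in the model (0.263), after median centring (0.0562), without replicate 1 (0.183), without replicate 2 (0.121) and without replicate 4 (0.173). The other cofactors, among them prefoldin subunits and phosducin-like genes, had differences between -0.45 for Pfdn1 and 0.35 for Arl2 and did not pass; Pfdn1 and Arl2 are named as the ends of that range.

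The actin and tubulin genes, whose products are the chaperonin's main clients, moved in both directions. Of 12 measured 2 rose, 1 fell and 9 did not pass, with a median of 0.13. An unadjusted limma p under 0.05 was found for 6, again a count without a share over all genes beside it. Over all genes 3.56% rose and 4.89% fell. Tubb6, a beta-tubulin, rose by 1.38 (SE 0.15), or 2.60-fold, from 7.08 ± 0.40 to 8.46 ± 0.62 (limma adjusted p = 0.00204), and by 1.45 without replicate 3. Tubb5, the widely expressed beta-tubulin, rose by 0.86 (SE 0.12) from 6.98 ± 0.60 to 7.85 ± 0.59 (adjusted p = 0.00529), although its groups overlap and it missed the threshold without the replicate number in the model (0.212). Without replicate 3 it rose by 0.83.

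Tuba8, an alpha-tubulin enriched in muscle, fell by 1.41 (SE 0.12), or 2.67-fold, from 10.21 ± 0.37 to 8.80 ± 0.55 (limma adjusted p = 0.000829). All 4 of its same-numbered differences were below -1.23. Without replicate 3 it fell by 1.31. In that setting 4 genes of the list rose and 1 fell, beside 5.80% and 5.26% of all genes, with Tubb2a at 1.21 and Tuba4a at 0.53 joining, which are named after their values were seen. Acta1, the actin of the adult skeletal muscle sarcomere, is named outside the rule for named genes. It had a difference of -0.40 that did not pass (limma adjusted p = 0.0731, from 0.0448 to 0.504 over the alternatives). It was lower in all 4 replicates, and its groups do not overlap.

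Among other known clients, none of 11 measured genes passed limma's test over all genes. An unadjusted p under 0.05 was found for 2, with no share over all genes taken. The median was 0.01, or -0.04 without replicate 3, where none passed either. The largest differences were -0.40 (SE 0.10) for Gnb5, a G protein beta subunit (adjusted p = 0.0563), and 0.33 (SE 0.12) for the transcription factor gene Stat3 (adjusted p = 0.147). Gnb5 passed in the fit without the dimmest 25% (0.0340), in the fit with array weights (0.0201) and with trended and robust moderation (0.0389). Its difference was -0.38 without replicate 3 (0.0705).

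Among relatives of the chaperonin, Mkks, which encodes a chaperonin-like protein of the Bardet-Biedl syndrome group, fell by 0.66 (SE 0.11) from 6.56 ± 0.14 to 5.89 ± 0.11 (limma adjusted p = 0.0133). Its groups do not overlap, and it was lower in all 4 replicates, 2 traits for which no downward share over all genes was taken. Without replicate 3 it fell by 0.63, and it missed the threshold without replicate 1 (0.0859). Its relative Bbs12 had a difference of 0.10, so 1 of 2 measured genes fell, beside 4.89% of all genes. Their median was -0.28, or -0.24 without replicate 3. The mitochondrial chaperonin genes Hspd1 and Hspe1 are not analysed here.

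The Hsp70 and Hsp90 list holds chaperones that act upstream of or beside the chaperonin, their cochaperones and the small heat shock protein gene Cryab. Of its 17 measured genes 1 rose and none fell, which is near the 3.56% and 4.89% of all genes. An unadjusted limma p under 0.05, in either direction, was found for 4 of the 17, again without a share over all genes. The median was -0.06, or -0.001 without replicate 3. Hspa4, a nucleotide exchange factor of the Hsp110 family, rose by 0.49 (SE 0.11) from 8.90 ± 0.08 to 9.39 ± 0.23 (limma adjusted p = 0.0387), with groups that do not overlap, and by 0.54 without replicate 3. It missed the threshold without the replicate number in the model (0.0655), after median centring (0.0586), without replicate 1 (0.124), without replicate 2 (0.144) and without replicate 4 (0.186). Dnaja1, a J-domain partner of Hsp70 named after its values were seen, had the lowest difference, at -0.55.

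**Figure D4:**
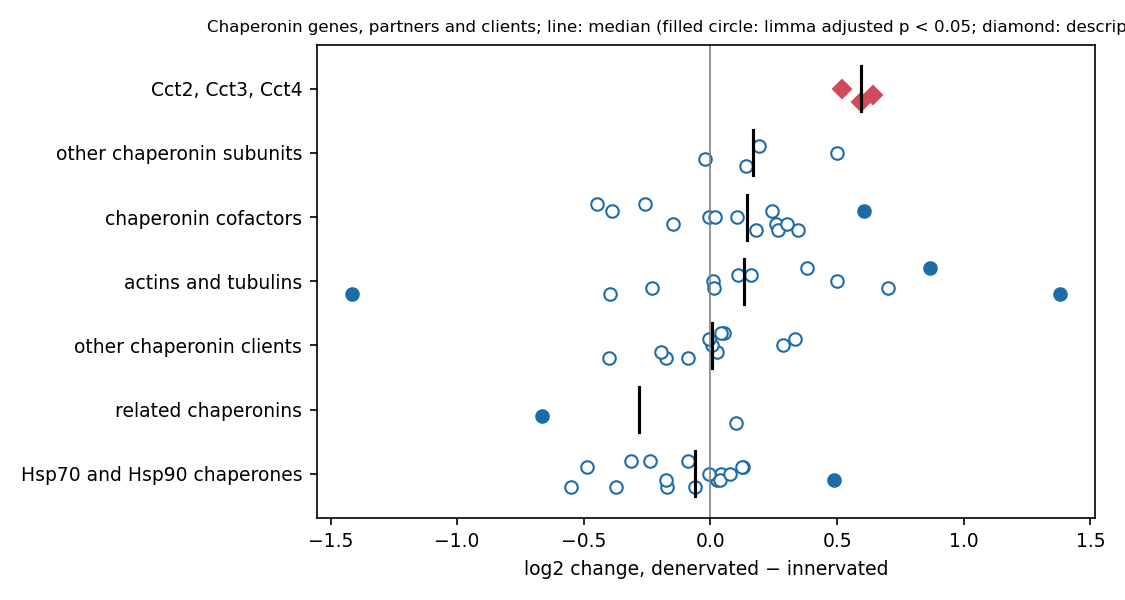
Log2 change, denervated minus innervated, of each measured gene in the members and in 6 lists of related genes (rows), with filled circles for a limma adjusted p under 0.05, diamonds for the members, which are described without a test, and a black line at each median. The members lie between 0.52 and 0.64, and the list medians lie between -0.28 for the 2 related chaperonins and 0.17 for the other subunits.

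Chaperonin genes are used by all cell types, so markers of other cells were read in the same arrays. Of 9 leukocyte and macrophage markers 3 rose, namely Tyrobp, Cd68 and Laptm5, with a median of 0.84, or 0.43 without replicate 3. Their summed intensity was 574 to 713 on the innervated and 1100 to 2769 on the denervated arrays, so that these groups do not overlap. The sums of the muscle fibre markers, the cofactors and the related chaperonins did not overlap either, while those of the other lists did. Such a sum mostly follows its brightest genes, and no share over other sets of genes was taken. Each of the 9 leukocyte and macrophage markers had its highest denervated value in replicate 3, a trait whose share over all genes was not taken. Dim values sit higher on that array in general, with a lower quartile of 5.36 against 4.98 to 5.08 on the other denervated arrays. There Ptprc was at 9.34, against 5.97 to 6.10 in the other denervated arrays, and Cd52 at 8.95, against 4.43 to 5.06. Over all genes 3.56% rose and 4.89% fell. Of 4 markers of dividing cells 1 rose, Mki67 (limma adjusted p = 0.0492, from 0.0251 to 0.383 over the alternatives), and the median was 0.24, or 0.04 without replicate 3. Of 6 fibroblast markers 2 rose, while 3 of the 6 lay below 0 and the median was 0.04. Without replicate 3, where the median was 0.07, 1 of these 3 fell, the collagen gene Col1a1 (change -0.67, adjusted p = 0.00846). Of 5 endothelial markers 2 fell, and of 9 muscle fibre markers 3 fell. Without replicate 3 these counts were the same and 1 muscle fibre marker rose, Des, the gene of desmin, which like Col1a1 is named after its values were seen. None of 3 Schwann cell and 4 satellite cell markers passed limma's test, and none of them had an unadjusted p under 0.05. The part of these cells in the differences of Cct2, Cct3 and Cct4 was not tested.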

How the data were processed

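Messenger RNA was measured in 8 samples, 1 array each, from 50 ng of total RNA, amplified and cut to an average of 85 bases. The authors deposited log2 intensities per probe set, made with GCOS and RMA against build mm9, per the submitters' processing notes; versions and filters are not given there. Values between 1.67 and 13.1 were found; they carry no detection calls, so dim genes cannot be told from background, and precision is limited by the number of arrays. Of 16755 probe sets, 14996 had 1 gene symbol in the platform annotation, 1019 several and 740 none. The brightest probe set per gene left 14860 genes.

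Limma 3.58.1 in R 4.3.3 was fitted to all genes with group and replicate number as terms, moderated, two-sided and adjusted by Benjamini-Hochberg (threshold 0.05), and tested on simulated data. Replicate number was kept because, per the labels, denervated levels were set against those of the opposite leg. Whether an equal number means the same mouse is not stated: deviations of same-numbered arrays from their group means correlated at 0.23, -0.03, 0.45 and 0.35. No label ties the arrays of a group to different mice, so p-values reflect only the spread between these samples, which may be technical.

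Members and lists were chosen with earlier results of these data known. Named genes are the members, all measured subunits, up to 4 called genes per list in its main direction and 2 in the other (with no call, the 2 largest differences), and the 5 genes most like the members over the arrays, with and without group means. List symbols were matched by symbol or Entrez ID; 60 of 81 listed pathway genes were measured. Promoter sequences are RefSeq's, from GRCm38.p6. The alternatives tried were no replicate block, quantile normalization, median centring, cyclic loess, the dimmest 25% left out, averaging probe sets per gene, array weights, trended and robust moderation, and each replicate number left out.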

Additional observations from a re-analysis of the deposited data

Results flagged for a closer look

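In 14 of 50 groups of 4 arrays examined, 1 array lay far from the other 3 by Dixon's test, and 12 of the 14 are the same array, denervated replicate 3. Chance gives about 1 in 20 independent groups, but the count cannot be set against that rate: 7 of the 12 are genes picked for a profile like that of the members, in which this array is low, and 2 are members. Among the chaperonin genes this array was low for Cct2, at 8.58 against 9.29 to 9.41, for Cct4, at 8.34 against 8.58 to 8.62, and for Cct7, at 7.65 against 8.79 to 8.88. It was high for Cct6b, at 4.89 against 4.12 to 4.15. It was also low for Tuba8 at 7.98, Eda2r at 7.13, Gnl3 at 8.90, Txnl1 at 9.70, Kpna3 at 8.12, Cul1 at 8.72, Smim7 at 9.17 and Heatr3 at 6.36. The other 2 were innervated arrays: replicate 1 for Txnl1, at 9.61 against 9.42 to 9.44, and replicate 4 for Tsn, at 7.21 against 7.38 to 7.41.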

How the results depend on the processing

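The differences of Cct2, Cct3 and Cct4 stayed above 0 and within 1 SD of their same-numbered differences under every alternative run; with a replicate number left out they ranged from 0.51 to 0.73, from 0.55 to 0.81 and from 0.50 to 0.58. Their place among the genes past the threshold was less stable: Cct2 lost it without the replicate block, Cct2 and Cct3 after median centring, and all 3 without replicate 1, 2 or 4. Without the replicate block 800 genes passed against 1255, and neither the cofactor nor the Hsp70 and Hsp90 list kept its single call (0 each). After median centring, where 1038 genes passed, both counts were 0 too. With array weights 2200 genes passed, with 1 other subunit (Cct7), 6 actins and tubulins, 1 other client and 2 genes of the Hsp70 and Hsp90 list. After cyclic loess 1 other subunit and 2 genes of the Hsp70 and Hsp90 list passed. With the dimmest 25% left out, and with trended and robust moderation, 1 other client and 2 genes of that list did so. The second gene of that list was Dnaja1. With replicate numbers 1 to 4 left out in turn, all genes gave 347, 651, 1643 and 486 calls. Other subunits gave 0 to 1, cofactors 0 to 1, actins and tubulins 3 to 5, related chaperonins 0 to 1, and the Hsp70 and Hsp90 list 0 to 1. These fits have fewer arrays; other causes were not tested.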
